A study of Mus musculus with 6 samples.

Results

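The 10 genes described here belong to the NRF2 pathway and to the glutathione, thioredoxin, catalase and dismutase systems that remove reactive oxygen. They were Nfe2l2, Keap1, Nqo1, Gclc, Gclm, Txnrd1, Srxn1, Gsr, Cat and Sod2, listed by symbol, and each was represented by the 1 probe set annotated to that symbol alone. They are 10 of 19937 genes that could be tested on the array. The cells were primary granulocytes of the mouse strain C57BL/6J, and 3 Affymetrix arrays (type Mouse Gene 1.0 ST) were labelled caffeine+ and 3 caffeine-. Per the labels' protocols, cells in both plates were held in 15 mM caffeine for 4 hours and washed. For a further 4 hours, the caffeine+ plate had caffeine together with 2 µg/ml actinomycin D, which blocks transcription, and the caffeine- plate had actinomycin D alone. By that protocol the caffeine- cells had also met caffeine in the first step, although their label says they were not treated with it. Caffeine was used to inhibit nonsense-mediated decay (NMD), the pathway that degrades mRNAs with premature stop codons, and the series asks which transcripts accumulate. Every array was from cells given actinomycin D, so there was no comparison with cells without it.

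NRF2, the product of Nfe2l2, is a transcription factor that KEAP1 holds in the cytoplasm and delivers to a CUL3 ubiquitin ligase. When oxidants or electrophiles modify KEAP1, NRF2 escapes degradation, pairs with a small MAF protein and binds antioxidant response elements near genes for glutathione synthesis, thioredoxin reduction and quinone detoxification. Neutrophils make large amounts of superoxide through the phagocyte NADPH oxidase, and these systems limit the damage to the cell itself.

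All values are the authors' deposited signals on the log2 scale, and each difference is caffeine+ minus caffeine- with its standard error, tested with limma over all 19937 genes after Benjamini-Hochberg adjustment at a threshold of 0.05. The labels do not say whether the replicates were separate animals or cultures, so the p-values rest on a spread among arrays that could be technical. The median signal of an array lay between 6.49 and 6.60, and arrays of the same group correlated at 0.986 to 0.992 across probe sets, against 0.959 to 0.965 for arrays of different groups. All 12 granulocyte markers of a list were measured, and all 12 fell, against 21.7% of all genes. The median fall was 0.62 on the log2 scale, with log2 differences from -1.1 (Elane) to -0.31 (S100a9). Elane, the neutrophil elastase gene, had a mean signal of 10.63 ± 0.02 in caffeine+ arrays and 11.74 ± 0.07 in caffeine- arrays (SD, n = 3 each). On such arrays fewer cells of a type and less RNA per cell cannot be told apart, and a change in total mRNA per cell is not seen.

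Of the 10 genes, 1 rose (Gclc), 6 fell (Nqo1, Srxn1, Cat, Keap1, Gsr and Sod2) and 3 did not pass the test (Nfe2l2, Gclm and Txnrd1). Among all genes tested, 16.2% rose and 21.7% fell. The 10 genes all lay above the median signal level of genes, where 3070 of 9969 genes rose and 3496 fell. Those are larger shares than over all genes. The shares of all genes given beside the lists below are not matched for signal level. The median log2 difference was -0.40 over the 10 genes and -0.04 over all genes. In 7 of the 10 genes the 3 caffeine+ arrays did not overlap the 3 caffeine- arrays, against 45.9% of all genes. Nqo1 and Srxn1 fell by at least 2-fold, as did 3.15% of all genes. The mean signal over the 10 genes was 8.79 to 8.86 in caffeine+ arrays and 9.23 to 9.33 in caffeine- arrays.

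**Figure D1:**
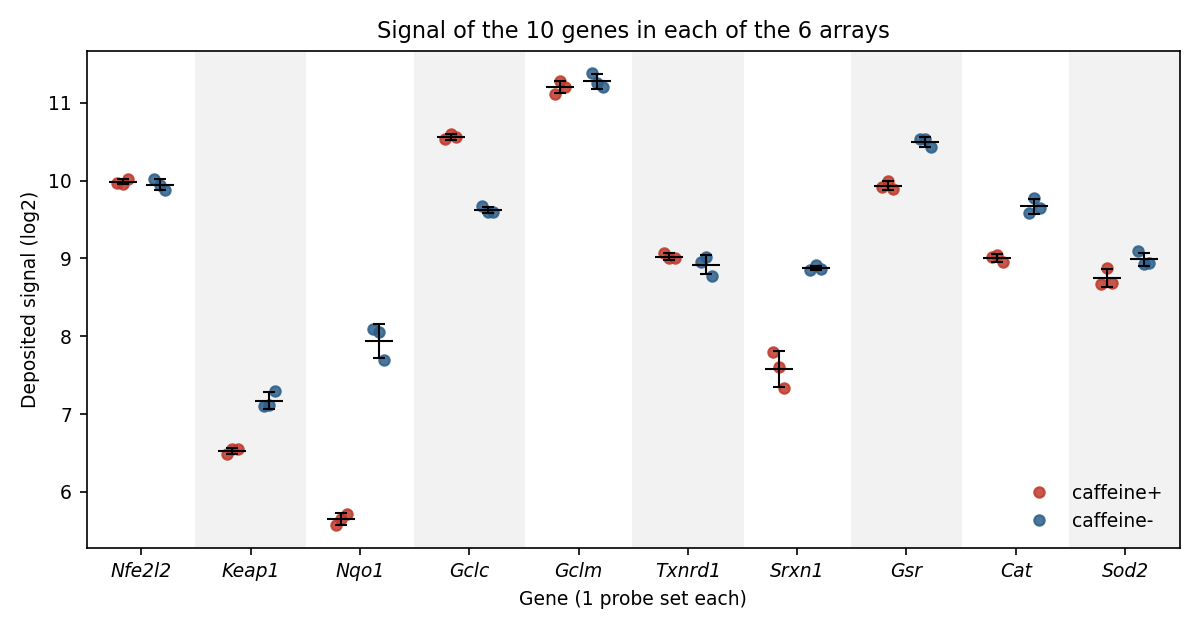
Deposited log2 signal (y axis) of each of the 10 genes (x axis) in the 3 caffeine+ arrays (red, left of each pair) and the 3 caffeine- arrays (blue, right), with black bars for the group mean and SD. The groups lie far apart for Nqo1, Srxn1 and Gclc, and overlap for Nfe2l2, Gclm and Txnrd1.

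Of the regulator pair, Nfe2l2 did not pass the test and Keap1 fell. Nfe2l2, the gene of NRF2 itself, had signals of 9.97, 9.96 and 10.02 in caffeine+ arrays, against 10.02, 9.94 and 9.88 in caffeine- arrays. The groups overlapped, and the log2 difference was 0.04 ± 0.06 (limma adjusted p = 0.72), with a 95% interval of -0.09 to 0.17. Keap1, the gene of the adaptor that targets NRF2 for degradation, had 6.48, 6.55 and 6.55 in caffeine+ arrays, against 7.10, 7.12 and 7.30 in caffeine- arrays. Every caffeine+ array was below every caffeine- array, and Keap1 was 1.57-fold lower (log2 difference -0.65 ± 0.10, limma adjusted p = 4.2e-05). The arrays measured mRNA, and NRF2 protein, which KEAP1 controls, was not measured.

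Nqo1, an NAD(P)H quinone reductase gene and a classical NRF2 target, had the largest difference of the 10. Its signals were 5.57, 5.65 and 5.72 in caffeine+ arrays, against 8.09, 8.05 and 7.69 in caffeine- arrays. The groups were separated by 1.97 log2 units, several times the SD within either group (0.08 in caffeine+ and 0.22 in caffeine- arrays). Nqo1 was 4.92-fold lower (log2 difference -2.30 ± 0.11, limma adjusted p = 4.5e-10), the 25th largest fall among all 19937 genes. Its caffeine+ signals lay below the array medians, where a log2 difference may understate the change, which was not tested. The fall was larger than that of any of the 12 granulocyte markers, of which Elane fell most (log2 difference -1.10 ± 0.05, limma adjusted p = 2.8e-10).

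Srxn1 encodes sulfiredoxin, which restores over-oxidised peroxiredoxins. It had signals of 7.80, 7.61 and 7.34 in caffeine+ arrays, against 8.85, 8.91 and 8.87 in caffeine- arrays. The caffeine+ arrays were spread more widely (SD 0.23) than the caffeine- arrays (SD 0.03), but the highest of them stayed 1.05 log2 units below the lowest caffeine- array. Srxn1 was 2.45-fold lower (log2 difference -1.29 ± 0.10, limma adjusted p = 5.1e-08).

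The windows before the transcription starts of Nqo1 and Srxn1, the genes that fell most, are shown beside that of Gclm, a gene of the same pathway that did not pass the test. Each is the 250 bases before an annotated start, 5′ to 3′ on the gene's strand, from RefSeq on GRCm38.p6. Capitals mark TGANNNNGC on either strand, the loose core of the antioxidant response element.
Nqo1, chr8:107403206-107403455, minus strand: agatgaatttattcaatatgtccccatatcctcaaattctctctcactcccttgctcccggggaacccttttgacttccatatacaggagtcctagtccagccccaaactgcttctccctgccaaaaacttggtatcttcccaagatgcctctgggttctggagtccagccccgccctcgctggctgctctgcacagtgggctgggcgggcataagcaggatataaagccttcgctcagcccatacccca
Srxn1, chr2:152105274-152105523, plus strand: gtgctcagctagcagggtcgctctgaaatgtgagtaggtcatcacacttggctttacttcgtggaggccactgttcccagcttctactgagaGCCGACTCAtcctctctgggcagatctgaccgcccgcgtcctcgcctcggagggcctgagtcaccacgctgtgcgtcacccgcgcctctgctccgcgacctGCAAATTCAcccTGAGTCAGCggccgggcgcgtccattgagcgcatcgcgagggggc
Gclm, chr3:122245307-122245556, plus strand: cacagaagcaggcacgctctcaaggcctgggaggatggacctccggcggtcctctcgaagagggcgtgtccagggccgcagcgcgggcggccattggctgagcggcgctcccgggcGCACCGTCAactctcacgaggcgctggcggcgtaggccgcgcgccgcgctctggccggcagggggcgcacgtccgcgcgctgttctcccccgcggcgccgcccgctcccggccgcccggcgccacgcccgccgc
The stricter core TGACNNNGC is contained in the loose one, and both strands were searched for each. The Srxn1 window held 3 loose matches and no strict one, and TGAGTCAGC, which began 45 bases before the start, was the match nearest to it. In Gclm the 1 match, GCACCGTCA on the reverse strand, was also a strict one and began 134 bases before the start. No match to either motif was present in the Nqo1 window. RefSeq windows were held for 8 of the 10 genes, not for Gclc or Gsr. These genes had 10 windows, 3 of them of Txnrd1. The strict core was found in 3 of the 10 windows (1 each of Nfe2l2, Gclm and Txnrd1) and in 10.2% of 32851 windows of all genes. The loose core was found in 6 of the 10 (2 of Txnrd1 and those of Nfe2l2, Gclm, Keap1 and Srxn1) and in 35.2% of all windows. These are matches of letters within a short window and do not show binding, and transcription was blocked in both groups.

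Glutathione is made from glutamate, cysteine and glycine, and its first and rate-limiting step is carried out by glutamate-cysteine ligase, an enzyme of a catalytic and a modifier subunit. The mRNA of one subunit rose, and that of the other did not pass the test. Gclc, the catalytic subunit gene, had signals of 10.53, 10.60 and 10.56 in caffeine+ arrays, against 9.67, 9.60 and 9.60 in caffeine- arrays. Each caffeine+ array was higher than each caffeine- array by at least 0.86 log2 units. Gclc was higher by 0.94 ± 0.06 on the log2 scale or 1.92-fold (limma adjusted p = 4.2e-09), and it was the 1 gene of the 10 that rose.

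Gclm, the modifier subunit gene, had signals of 11.12, 11.28 and 11.21 in caffeine+ arrays, against 11.38, 11.25 and 11.20 in caffeine- arrays. The groups overlapped, with a log2 difference of -0.07 ± 0.06 (limma adjusted p = 0.42) and a 95% interval of -0.20 to 0.06. Within each array, Gclm minus Gclc was 0.59, 0.68 and 0.65 in caffeine+ arrays, against 1.71, 1.64 and 1.60 in caffeine- arrays. This within-array difference changed by -1.01 ± 0.04 on the log2 scale, and the groups did not overlap. With 3 arrays against 3 there are 20 splits, and the two-sided exact permutation test gave p = 0.1, the smallest it can give in this design, also after adjustment over the 4 pairs of genes tested in this way.

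Of the reductases that recycle glutathione and thioredoxin at the cost of NADPH, Gsr fell and Txnrd1 did not pass the test. Gsr, the glutathione reductase gene, had signals of 9.924, 10.002 and 9.887 in caffeine+ arrays, against 10.525, 10.537 and 10.430 in caffeine- arrays. The groups were 0.43 log2 units apart, and Gsr was 1.47-fold lower (log2 difference -0.56 ± 0.06, limma adjusted p = 1.5e-06). Txnrd1, the gene of cytosolic thioredoxin reductase, a selenoprotein, had 9.07, 9.0 and 9.0 in caffeine+ arrays, against 8.96, 9.02 and 8.78 in caffeine- arrays. The groups overlapped, and the log2 difference of Txnrd1 was 0.10 ± 0.08 (limma adjusted p = 0.39, 95% interval -0.07 to 0.26). Txnrd1 minus Gsr within an array averaged -0.92 ± 0.08 in caffeine+ arrays and -1.58 ± 0.07 in caffeine- arrays (SD, n = 3 each), a change of 0.66 ± 0.06 (exact permutation p = 0.1, the smallest possible). Gclm, Txnrd1 and Gsr each share their span with 2 other annotated genes, among them Eid3 for Txnrd1 and the snoRNA gene Gm24727 for Gsr, so part of their signal may belong to those genes.

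Sod2 encodes the manganese superoxide dismutase of mitochondria, which turns superoxide into hydrogen peroxide, and Cat encodes catalase, which splits hydrogen peroxide in peroxisomes. Cat had signals of 9.02, 9.05 and 8.95 in caffeine+ arrays, against 9.59, 9.78 and 9.65 in caffeine- arrays. No array of one group reached the other, and Cat was 1.59-fold lower (log2 difference -0.67 ± 0.07, limma adjusted p = 1.2e-06). Sod2 had 8.67, 8.88 and 8.69 in caffeine+ arrays, against 9.09, 8.93 and 8.94 in caffeine- arrays. The groups were only 0.04 log2 units apart, and Sod2 was 1.18-fold lower (log2 difference -0.24 ± 0.08, limma adjusted p = 0.031). The Sod2 call was lost without caffeine+ array 1 (limma adjusted p = 0.15) or 3 (0.11) and without caffeine- array 1 (0.12), when arrays were centred on their medians (0.14), without an intensity trend (0.07) and when every probe set was tested (0.08), and over 15 alternatives its adjusted p ran from 0.002 to 0.15.

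Sod2 minus Cat averaged -0.26 ± 0.09 in caffeine+ arrays and -0.69 ± 0.18 in caffeine- arrays (SD, n = 3 each), a change of 0.43 ± 0.12. Nfe2l2 minus Keap1 averaged 3.46 ± 0.04 in caffeine+ arrays and 2.77 ± 0.18 in caffeine- arrays, a change of 0.69 ± 0.11. Neither pair's groups overlapped, and the exact permutation test gave p = 0.1 for both. Each such change is the difference of the changes of its 2 genes given above, so it is no evidence beyond theirs.

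**Figure D2:**
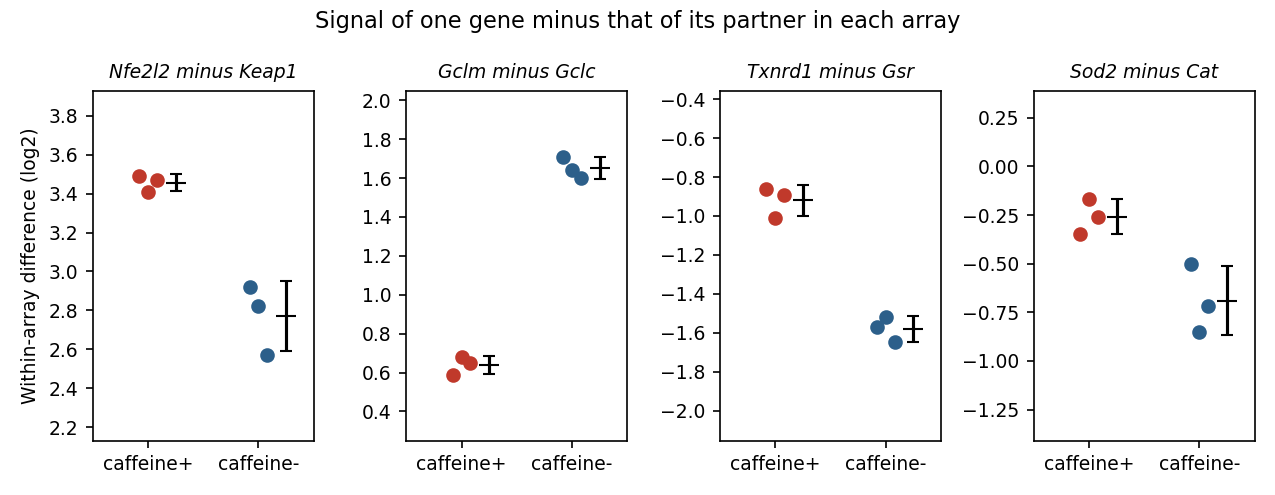
Within-array log2 signal of one gene minus that of its partner (y axis) for 4 pairs, with the 3 caffeine+ arrays (red, left) and the 3 caffeine- arrays (blue, right) as points and the group mean and SD as black bars. The groups are separate in all 4 panels, most widely for Gclm minus Gclc.

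**Figure D3:**
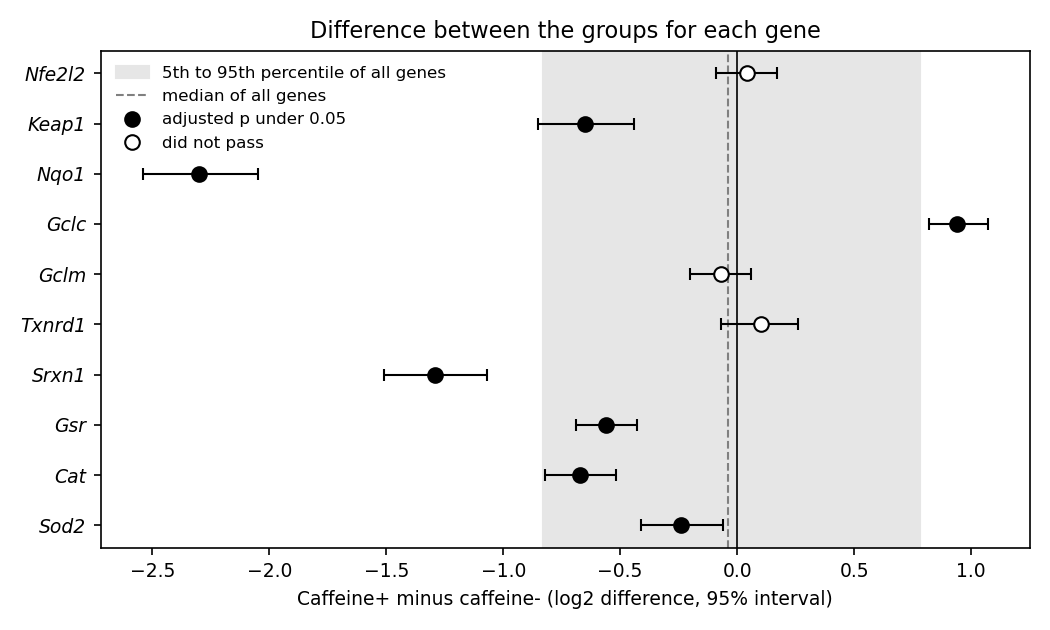
Log2 difference, caffeine+ minus caffeine- (x axis), of the 10 genes with its 95% interval from limma. Filled points passed an adjusted p of 0.05, the dashed line is the median of all genes (-0.04), and the grey band spans their 5th to 95th percentile (-0.83 to 0.78). Nqo1 and Srxn1 lie below the band and Gclc above it.

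Keap1, Gsr and Cat fell by amounts close to the median of the granulocyte markers. The counts for markers of other cells stand beside 21.7% of all genes that fell and 16.2% that rose. The monocyte and macrophage list had 12 measured markers, of which 7 fell and 2 rose, with the mean signal of the list at 7.52 to 7.58 in caffeine+ arrays and 7.91 to 8.05 in caffeine- arrays. For the 9 eosinophil, basophil and mast cell markers, of which 4 fell and 1 rose, it was 7.59 to 7.64 in caffeine+ arrays and 7.96 to 8.15 in caffeine- arrays. For the granulocyte list it was 9.61 to 9.66 in caffeine+ arrays and 10.23 to 10.35 in caffeine- arrays. Erythroid cells are rich in catalase, and 2 of 5 measured erythroid markers fell and none rose, at 6.25 to 6.32 in caffeine+ arrays and 6.48 to 6.58 in caffeine- arrays. The lists of lymphoid markers had medians of 0.00 (B cells) and 0.04 (T and NK cells). Among 6 B cell markers 2 fell (5.80 to 5.98 in caffeine+ arrays, 6.12 to 6.35 in caffeine- arrays), and among 7 T and NK cell markers 1 fell (5.73 to 5.91 in caffeine+ arrays, 5.75 to 5.90 in caffeine- arrays). Of the B cell markers 4 did not pass the test. Cd79b, picked out after its value was seen, was 3.29-fold lower (log2 difference -1.72 ± 0.11, limma adjusted p = 4.8e-09). No marker is listed at 0 on this scale, and the part of these shifts in the differences of the 10 genes was not tested.

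Of 16 measured regulators and partners of NRF2, Nfe2l2 and Keap1 included, 5 rose (31.2%, against 16.2% of all genes) and 2 fell (12.5%, against 21.7%). The median log2 difference was -0.05, close to that of all genes (-0.04). With genes below the median signal level left out, 5 genes of the list rose and 3 fell. Of all 9969 genes kept by that filter, 3070 rose and 3496 fell. Cul3, the scaffold of the ligase that KEAP1 serves, had 12.11, 12.10 and 12.13 in caffeine+ arrays, against 11.41, 11.37 and 11.24 in caffeine- arrays. It was 1.71-fold higher (limma adjusted p = 7e-09). Gsk3b, a kinase that marks NRF2 for a second degradation route, was also 1.71-fold higher, and Bach1, a repressor that competes with NRF2 at response elements, was higher by 0.42 ± 0.08 on the log2 scale or 1.34-fold (limma adjusted p = 0.00071). The remaining rises, picked out after their values were seen, were Mafk, the gene of a small MAF protein, and Dpp3. Mafk was 1.27-fold higher (limma adjusted p = 0.0087) and Dpp3 1.24-fold higher (limma adjusted p = 0.016).

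The other fall on that list was Nfe2, which encodes p45 NF-E2, a blood-cell factor of the same family as NRF2. Nfe2 had signals of 7.82, 7.87 and 7.87 in caffeine+ arrays, against 9.50, 9.52 and 9.30 in caffeine- arrays, and was 3.01-fold lower (log2 difference -1.59 ± 0.08, limma adjusted p = 5.2e-10). After quantile normalization 6 genes of the list fell in place of 2, since Nfe2l1, Mafg, Rbx1 and Sqstm1 then passed as well. Without that normalization their log2 differences were -0.18, -0.17, -0.11 and -0.09.

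Of 26 further NRF2 target genes that were measured, 15 fell (57.7%, against 21.7% of all genes) and 3 rose. Their median log2 difference was -0.31, against -0.04 over all genes. The 4 with the smallest p all fell. Gstm1, a glutathione S-transferase gene, was 2.07-fold lower (log2 difference -1.05 ± 0.06, limma adjusted p = 7.3e-10), Mgst1, a microsomal transferase gene, 2.09-fold, Gstp1 1.73-fold and the peroxiredoxin gene Prdx1 1.91-fold lower. Gstm1 belongs to a family of close paralogs, and shared hybridisation between them cannot be told apart here.

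Several more genes were chosen with their values in view. Hmox1, the heme oxygenase 1 gene, had 9.94, 9.92 and 9.85 in caffeine+ arrays, against 10.74, 10.83 and 10.54 in caffeine- arrays, and was 1.74-fold lower (limma adjusted p = 1.9e-07). The pentose phosphate genes Taldo1, Pgd and Tkt, which regenerate NADPH or feed that pathway, were 1.46-fold, 1.40-fold and 1.30-fold lower. The 3 that rose (11.5%, against 16.2% of all genes) were Slc3a2, the heavy chain of the cystine transporter (1.44-fold), and the efflux pump genes Abcc4 (1.43-fold) and Abcc1 (1.24-fold). Slc7a11, the light chain partner of Slc3a2, differed by -0.15 ± 0.06 (limma adjusted p = 0.069).

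In glutathione synthesis and use, 22 of 36 measured genes fell (61.1%, against 21.7% of all genes). Gclc was the 1 that rose (2.78%, against 16.2%), and the median log2 difference was -0.33. Leaving out Gclc, Gclm and Gsr, 21 of 33 fell and none rose. Mgst2, a microsomal glutathione transferase gene, had 8.49, 8.51 and 8.65 in caffeine+ arrays, against 10.44, 10.31 and 10.46 in caffeine- arrays. It was 3.61-fold lower (log2 difference -1.85 ± 0.07, limma adjusted p = 5.2e-11). Gstz1, a transferase gene of tyrosine breakdown, was 2.82-fold lower, with caffeine+ signals below the array medians, where the change may be understated. Glrx2, the mitochondrial glutaredoxin gene, was 1.96-fold lower. Gss, picked out after its value was seen, encodes the synthetase that follows glutamate-cysteine ligase, and it was 1.17-fold lower (log2 difference -0.22 ± 0.08, limma adjusted p = 0.047). The list shares 5 genes with the NRF2 target list, which is 13.9% of the glutathione list and 19.2% of the target list, so the counts are not separate.

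Among 23 measured thioredoxin, peroxiredoxin and dismutase genes, 13 fell (56.5%, against 21.7% of all genes) and 3 rose, with a median of -0.25. The share that rose was smaller than that of all genes (16.2%). Leaving out Txnrd1, Srxn1, Sod2 and Cat, 10 of 19 fell and 3 rose. Msrb1, a methionine sulfoxide reductase gene, had 8.83, 8.78 and 8.64 in caffeine+ arrays, against 10.02, 9.94 and 9.85 in caffeine- arrays, and was 2.28-fold lower (limma adjusted p = 4.2e-09). Prdx4, the peroxiredoxin gene of the endoplasmic reticulum, was 1.95-fold lower. Sesn3, a stress-induced sestrin gene, went the other way, with 9.24, 9.17 and 9.05 in caffeine+ arrays, against 8.22, 8.14 and 7.93 in caffeine- arrays, and was higher by 1.06 ± 0.09 on the log2 scale or 2.08-fold (limma adjusted p = 1e-07). The other two rises were also sestrins, Sesn2 (1.46-fold) and Sesn1 (1.29-fold), picked out after their values were seen. Txn1, the cytosolic thioredoxin gene and likewise picked out afterwards, differed by -0.07 ± 0.04 (limma adjusted p = 0.28).

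**Figure D4:**
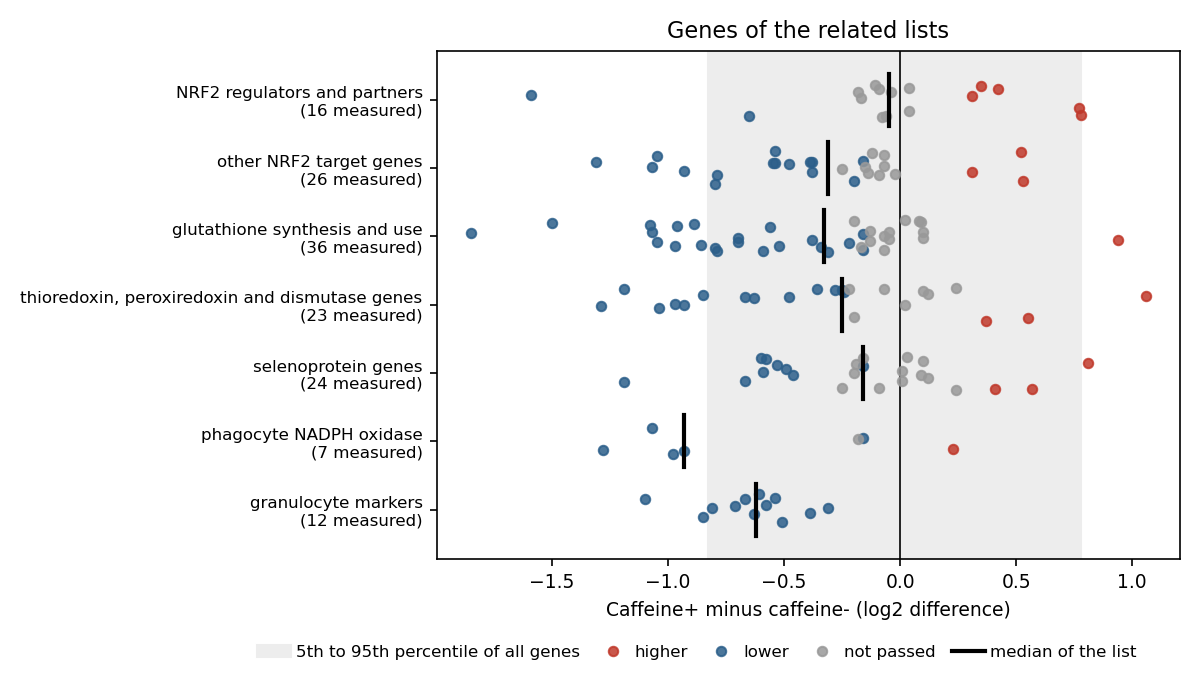
Log2 difference, caffeine+ minus caffeine- (x axis), of each measured gene of 7 lists (rows), with genes that rose in red, genes that fell in blue and genes that did not pass in grey. Thick bars are list medians and the grey band spans the 5th to 95th percentile of all genes. The medians run from -0.05 for NRF2 regulators and partners to -0.93 for the phagocyte NADPH oxidase.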

How the data were processed

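Granulocyte RNA was hybridised to 3 caffeine+ and 3 caffeine- Affymetrix arrays. Trizol extracts were used, and 300 ng of RNA went into the Encore Biotin labelling, per the labels' protocols. The table the authors deposited has 34760 probe sets, and its values, from 1.90 to 13.98, were taken as log2 signals normalized between arrays by the authors, which no header states. The method of summarization and normalization and the genome build of the array were not given in the sources used here, and no detection p-values were used, so low signals were not read as absence. The number of arrays limits the precision.

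Of the probe sets, 21640 had 1 gene symbol in the supplied platform annotation, 1321 had several and 11799 were not listed. For 21553 of those with 1 symbol, the current symbol was looked up through the gene identifier, whether or not it differed. A gene was represented by its brightest probe set with 1 symbol, giving 19937 genes. Each of the 10 genes had 1 probe set. The comparison used lmFit and eBayes of limma 3.58.1, run in R 4.3.3 (with an intensity trend, no filter on dim genes, no covariate). The test was checked on simulated data with known changes. Within-array differences of 4 gene pairs were compared by exact permutation.

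The 10 genes and all lists were chosen with earlier results of these data known. From each of 6 related lists, up to 4 further genes with the smallest p were named by rule, and any other gene is marked. Lists were described by counts and medians, with no set test. Listed genes without a probe set of a single symbol were not analysed here. The labels name no batch, and identical arrays were not found. Alternatives were the replicate block, quantile normalization, median centring, a filter on dim genes, the mean of probe sets, every probe set, eBayes without trend or robust, array weights, and each array left out.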

Additional observations from a re-analysis of the deposited data

How the results depend on the processing

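Over 15 alternatives, 9 of the 10 genes kept their side of the threshold in all of them, and Nqo1 stayed between -2.42 and -2.22, Srxn1 between -1.40 and -1.17 and Gclc between 0.88 and 1.00. The exception was Sod2, whose call was lost with arrays centred on their medians (-0.18), without an intensity trend (-0.24) and with every probe set tested (-0.24), and whose log2 difference ran from -0.30 to -0.18 when single arrays were left out. Of the 10 genes, 1 rose under every alternative and 5 or 6 fell. The same-numbered arrays of the groups deviated together at correlations of -0.03 to 0.29, and 2 of the 3 caffeine+ arrays correlated best with their own number, so the numbers were not taken to pair them. With the replicate number as a block, 1 of the 10 genes rose and 6 fell, as without it, and over all genes 3388 rose and 4660 fell, against 3229 and 4325. After quantile normalization 6 NRF2 regulators and partners fell, and the change in Gclm minus Gclc between the groups was -0.90, against -1.01 without it. Among genes above the median level 1 selenoprotein gene rose in place of 3, since 14 of 24 were then tested. Without an intensity trend, 0 phagocyte oxidase genes rose by limma (1, Rap1a, at an unadjusted p under 0.05). The 21 other genes named by rule from the lists kept direction and call under each alternative in which they were tested (14 for Gstz1, which the filter on dim genes left out). Except where stated, the cause was not tested.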

Other observations

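Selenoproteins carry selenocysteine at a UGA codon, which is otherwise a stop, and several of their mRNAs are known to be open to NMD when selenium is short. Of 24 measured selenoprotein genes, 9 fell (37.5%, against 21.7% of all genes) and 3 rose (12.5%, against 16.2%). Their median log2 difference was -0.16, against -0.04 over all genes. This list shares 3 genes with the glutathione list and 4 with the thioredoxin list. Besides Msrb1, Selenof had 10.43, 10.44 and 10.49 in caffeine+ arrays, against 10.98, 11.11 and 10.99 in caffeine- arrays, and was 1.49-fold lower (limma adjusted p = 4.2e-07). Sephs2, whose product makes the selenium donor, was 1.59-fold lower. Selenoi, a phospholipid synthesis gene, was higher by 0.81 ± 0.07 on the log2 scale or 1.75-fold (limma adjusted p = 7.9e-08), with 9.50, 9.55 and 9.57 in caffeine+ arrays, against 8.72, 8.76 and 8.73 in caffeine- arrays. Gpx4 and Gpx1, glutathione peroxidase genes picked out after their values were seen, were 1.5-fold and 1.12-fold lower.

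The phagocyte NADPH oxidase is the main source of superoxide in neutrophils. Of 7 measured genes of this list 5 fell (71.4%, against 21.7% of all genes) and 1 rose (14.3%, against 16.2%). The median log2 difference was -0.93. Ncf1, a cytosolic organiser subunit gene, had 8.98, 9.01 and 8.95 in caffeine+ arrays, against 10.30, 10.25 and 10.23 in caffeine- arrays, and was 2.43-fold lower (log2 difference -1.28 ± 0.06, limma adjusted p = 3.8e-10). The membrane subunit genes Cyba and Cybb were 2.11-fold and 1.98-fold lower, and Rac2, a GTPase gene of the active complex, 1.91-fold lower. The gene that rose was Rap1a (1.17-fold, picked out after its value was seen), a small GTPase found with the membrane subunits, and its call was lost without an intensity trend.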
